A study of Mus musculus with 18 samples.

Results

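At 24 h FGF6 lowered 7 of 8 detected markers of adipocyte precursors in a line of brown preadipocytes, beside 37.9% of all genes tested. Among 15 other progenitor surface genes tested, 7 were higher and 7 lower. By 24 h Zfp423, Ly6a and Pdgfrb were 13.8-fold, 7.51-fold and 5.18-fold lower than in vehicle, while Cd34 was 2.60-fold higher and Thy1 was 1.14-fold lower. The 10 genes followed here were chosen by name as preadipocyte and stromal identity markers: the receptors Pdgfra and Pdgfrb, the surface proteins Ly6a, Cd34, Thy1 and Dpp4, and the transcription factors Zfp423, Ebf1, Tcf21 and En1. They were chosen with earlier results of these data known, so counts of them describe these genes only. Each was taken as the row of the count table whose Ensembl identifier carries that symbol in the GENCODE mouse annotation, and all 10 were among the 48023 genes of the table.

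The cells were immortalized murine brown preadipocytes, made from the stromal-vascular fraction of brown fat with SV40 T antigen and kept undifferentiated in growth medium with serum. They received vehicle (Veh) or FGF6, a paracrine fibroblast growth factor, at 200 ng/ml for 4, 8 or 24 h. RNA sequencing of 3 libraries in each of the 6 groups gave 18 libraries, and every group is the same immortalized line, which limits it as a model of precursors in tissue. The labels number the libraries 1 to 3 within each group without saying whether they were separate cultures, so that p-values measure the spread between these libraries, which may be technical.

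Adipocyte precursors are mesenchymal cells of the stromal-vascular fraction. They are commonly sorted on PDGF receptor alpha together with surface proteins such as SCA-1 (encoded by Ly6a) and CD34, and zinc finger and EBF transcription factors prepare them for adipogenesis. PDGF receptor beta and THY1 are shared with fibroblasts and pericytes. DPP4 marks an interstitial progenitor population, TCF21 is found in white rather than brown fat precursors, and EN1 is a homeodomain protein of the dermomyotome, from which dorsal brown fat descends.

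Library totals ran from 24327816 to 33471980 counts with a median of 28922204.5, and TMM factors, which correct for differences in RNA composition, from 0.951 to 1.05. Levels are CPM, the counts of a gene per 1000000 counts of the library on that scale, and 3 counts in a library correspond to 0.0905 to 0.126 CPM. The third Veh 24 h library stood apart from its group: the chi-square per degree of freedom of its counts against the other 2 was 37.9 and 41.3, compared with 2.44 to 7.63 for all remaining pairs within groups. For 5 of the 8 detected markers its level lay between those of the other Veh 24 h libraries, while Zfp423 (9.67 CPM) and En1 (25.14 CPM) were lowest and Ebf1 (65.80 CPM) was highest in it. Values at 24 h without this library are therefore given below.

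In every library 8 of the 10 markers were detected, and the same 8 passed the filter on low counts that left 15071 genes for testing. Dpp4 had 3 counts in all, 2 in the first and 1 in the second Veh 4 h library, and Tcf21 had 0 counts in all 18 libraries. At these depths a count of 0 allows a level of up to 0.126 CPM. The cells thus carried PDGF receptor, Ly6a, Thy1 and Ebf1 transcripts at all times, and neither Dpp4 nor Tcf21 was detectable above that limit. Markers of other cell types were examined alongside, and at 24 h Ptprc, Adgre1 and Itgam of macrophages and Pecam1, Cldn5 and Emcn of endothelium reached at most 4 counts in any library. The other genes of those lists were higher: Cd68 had 82 to 186 counts, Csf1r up to 49, Lyz2 up to 40, Kdr up to 37 and Tek up to 8, and Cdh5 had 0 to 3 counts in Veh and 79 to 114 with FGF6.

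At 4 h, 7 of the 8 tested markers passed an edgeR quasi-likelihood FDR of 0.05, 1 higher and 6 lower, where 62.8% of all genes tested did (28.6% higher, 34.2% lower). Scaled by library size only, without TMM factors, these shares were 21.5% higher and 43.1% lower. At 8 h all 8 passed, 1 higher and 7 lower, beside 70.8% of all genes (32.4% higher, 38.4% lower), and at 24 h again 1 was higher and 7 were lower, beside 73.8% of all genes (35.9% higher, 37.9% lower). FGF6 thus moved most of the transcriptome at every time, and the share of markers called was not far from that background. The median log2 fold change of the 8 markers was -0.28 at 4 h, -0.67 at 8 h and -1.50 at 24 h, and that of all genes -0.05, -0.05 and -0.02. At least 2-fold changes were absent among the markers at 4 h (11.3% of all genes), numbered 2 at 8 h, both lower (10.9% of all genes), and reached 6 at 24 h (22.8%), of which 5 were lower (15.3%) and 1 higher (7.44%). The groups did not overlap for 7 markers at 4 h and all 8 at 8 and 24 h, as for 66.2%, 73.8% and 74.8% of all genes. In these bulk samples fewer cells of a type and less RNA per cell cannot be told apart.

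**Figure D1:**
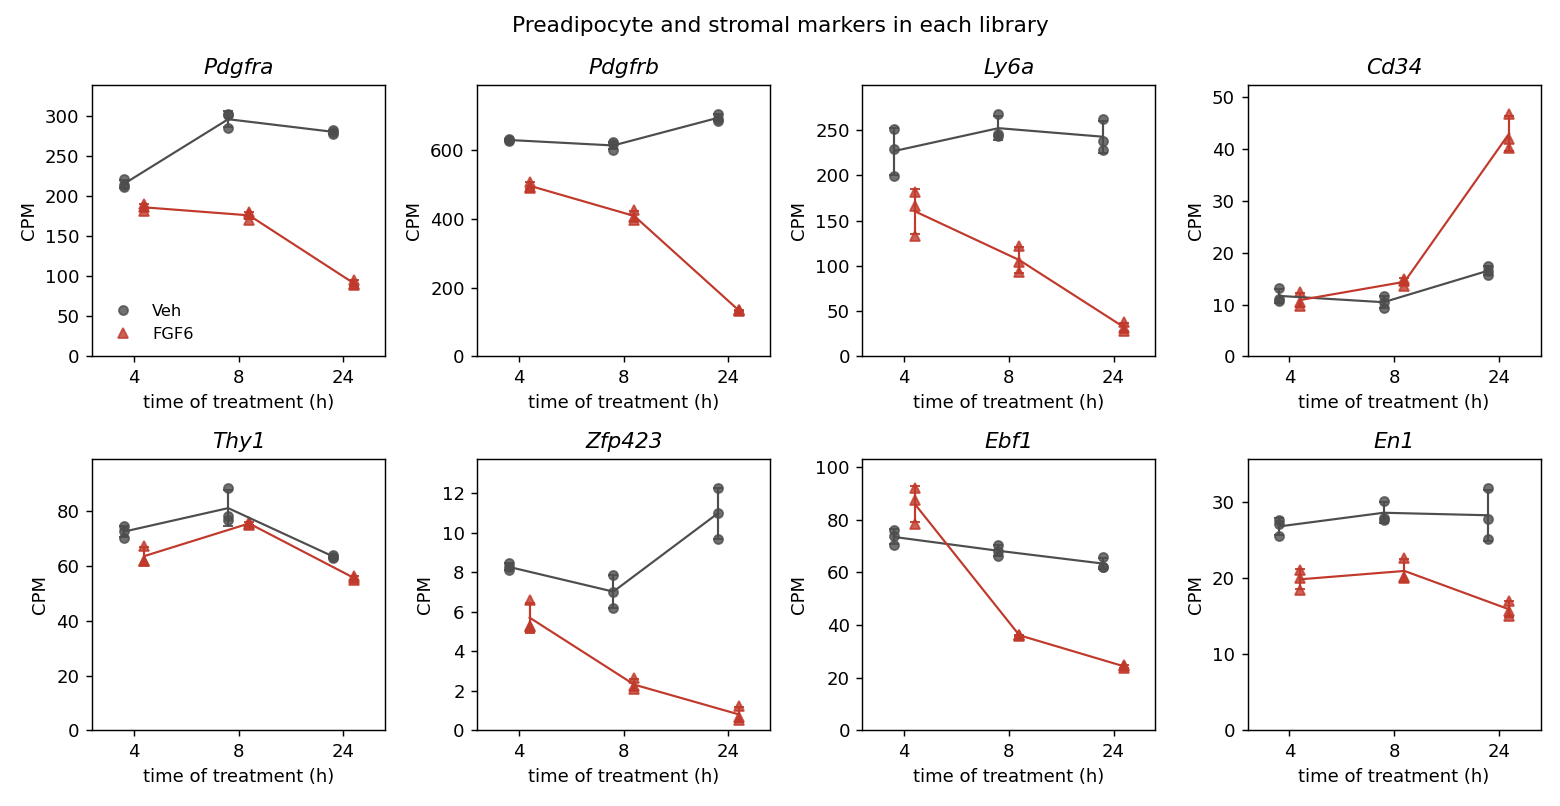
CPM of the 8 detected markers in each library against time of treatment (4, 8 and 24 h, evenly spaced), Veh as grey circles and FGF6 as red triangles, with lines through the group means and bars of 1 SD (n = 3). Pdgfra, Pdgfrb, Ly6a and Zfp423 separate further at each time, Cd34 crosses from no separation to the reverse direction, and Thy1 stays close to Veh throughout.

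The PDGF receptor alpha gene Pdgfra (ENSMUSG00000029231; chromosome 5, 75152292 to 75198215, plus strand, GRCm38), whose protein binds PDGF ligands and is the usual sorting marker of adipocyte precursors, was at 213.6, 211.1 and 221.0 CPM in Veh at 4 h and at 182.0, 186.4 and 190.2 CPM with FGF6. At 8 h the Veh libraries were at 285.0, 301.0 and 302.7 CPM and the FGF6 libraries at 180.1, 171.0 and 177.5 CPM. At 24 h Veh stood at 277.8, 282.9 and 280.8 CPM and FGF6 at 95.35, 88.77 and 90.29 CPM. Every FGF6 library lay below every Veh library of its time. The log2 fold change was -0.21 ± 0.03 (SE) at 4 h with an edgeR FDR of 7.75e-06, -0.75 ± 0.03 at 8 h with 3.45e-16, and -1.62 ± 0.04 at 24 h with 6.24e-23, a 3.07-fold fall (2.98-fold without the third Veh 24 h library). Part of the gap at 8 h arose in vehicle: Veh rose by 0.46 ± 0.03 between 4 and 8 h (edgeR FDR 4.05e-11), whereas the FGF6 means differed by -0.08. Of the 10024 exonic bases of Pdgfra, 652 are shared with other annotated genes, mostly Gm42802 and Gm42803 on the opposite strand, and the strand setting of the counting is not given in the sources used here.

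Pdgfrb (ENSMUSG00000024620; chromosome 18, 61045150 to 61085061, plus strand), which encodes the beta receptor of fibroblasts and pericytes, had the highest CPM of the markers in every group. Veh was at 627.6, 631.7 and 625.7 CPM at 4 h, 621.5, 616.0 and 599.7 CPM at 8 h, and 683.9, 703.6 and 690.3 CPM at 24 h. With FGF6 it was at 488.4, 507.0 and 491.2 CPM at 4 h, 423.9, 395.8 and 403.6 CPM at 8 h, and 134.3, 131.1 and 135.6 CPM at 24 h. The arms did not overlap at any time, and Veh changed little while FGF6 fell in each interval. The log2 fold change went from -0.34 ± 0.03 at 4 h and -0.59 ± 0.03 at 8 h to -2.37 ± 0.03 at 24 h (edgeR FDR 2.11e-10, 3.31e-15 and 3.16e-27). Leaving out the third Veh 24 h library changed the last value to -2.33. The step from 8 to 24 h was larger for the beta than for the alpha receptor, with the effect moving by -1.79 ± 0.04 for Pdgfrb and by -0.87 ± 0.05 for Pdgfra. The ratio of Pdgfrb to Pdgfra CPM, not corrected for gene length, was 2.46 to 2.49 in the Veh 24 h libraries and 1.41 to 1.50 in those with FGF6.

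Ly6a (ENSMUSG00000075602; chromosome 15, 74994877 to 74998031, minus strand) encodes SCA-1, a small GPI-anchored protein used to sort stem and progenitor cells. In Veh it was at 199.6, 229.2 and 251.4 CPM at 4 h, 245.3, 243.3 and 267.7 CPM at 8 h and 228.1, 262.0 and 237.8 CPM at 24 h. With FGF6 it was at 181.3, 166.5 and 133.3 CPM at 4 h, 122.2, 93.07 and 104.0 CPM at 8 h and 37.53, 28.33 and 31.16 CPM at 24 h. Ly6a varied more between replicates than the receptors, with a coefficient of variation up to 15.3%, but the arms were separate at each time. The log2 fold change was -0.50 ± 0.10 at 4 h, -1.24 ± 0.10 at 8 h and -2.91 ± 0.11 at 24 h, with edgeR FDRs of 9.19e-05, 3.62e-11 and 6.71e-18. Without the third Veh 24 h library the 24 h fall was 7.37-fold. Veh showed no change that passed between any of the times (4 to 24 h 0.10 ± 0.10, edgeR FDR 0.396).

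Ly6a has a close neighbour on chromosome 15, Ly6c1, and reads from the parts they share could be assigned to either gene or dropped, depending on a setting that is not given here. The annotated coding sequences of 402 and 393 bases are identical at 81.8% of 402 aligned columns, with a longest identical run of 48 bases. The last 120 coding bases, which contain that run, are shown: 111 of 120 positions agree. A read within an identical stretch cannot be told apart, while one that covers a differing base can, and read length was not considered. They lie at chr15:74995265-74995384 for Ly6a and chr15:75045405-75045524 for Ly6c1, both on the minus strand of GRCm38, with agreeing bases in capitals and differing bases in lower case.
Ly6a: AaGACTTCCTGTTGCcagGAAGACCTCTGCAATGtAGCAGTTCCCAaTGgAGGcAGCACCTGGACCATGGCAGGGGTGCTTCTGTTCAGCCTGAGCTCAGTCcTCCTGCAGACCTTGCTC
Ly6c1: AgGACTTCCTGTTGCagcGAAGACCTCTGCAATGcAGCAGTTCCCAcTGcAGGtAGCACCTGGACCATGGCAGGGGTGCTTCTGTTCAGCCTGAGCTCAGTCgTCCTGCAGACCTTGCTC
Ly6c1, expressed in endothelial, myeloid and some stromal cells, fell alongside Ly6a, with log2 fold changes of -0.40 ± 0.06, -0.99 ± 0.06 and -2.10 ± 0.07 at 4, 8 and 24 h, from 44.32 ± 1.94 CPM (SD, n = 3) in Veh at 24 h to 10.37 ± 1.29. Because of the shared stretches, how much of either count comes from the other gene was not tested. Ly6e, a more widely expressed relative, was -0.02 ± 0.10 at 4 h (edgeR FDR 0.844) and -1.17 ± 0.10 at 24 h (6.29e-11).

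Cd34 (ENSMUSG00000016494; chromosome 1, 194938819 to 194961279, plus strand), which encodes a sialomucin of progenitor and endothelial surfaces, went the other way. At 4 h the groups overlapped, with Veh at 10.99, 10.76 and 13.29 CPM and FGF6 at 10.43, 9.721 and 12.47 CPM. At 8 h the values were 9.28, 10.43 and 11.67 CPM in Veh and 14.52, 13.65 and 15.00 CPM with FGF6, and at 24 h 17.48, 15.65 and 16.48 CPM in Veh and 40.23, 46.72 and 41.91 CPM with FGF6. All FGF6 libraries were above Veh from 8 h onward. The log2 fold change was -0.11 ± 0.10 at 4 h, which did not pass (edgeR FDR 0.359), 0.46 ± 0.10 at 8 h (0.000174) and 1.38 ± 0.08 at 24 h (9.69e-14). Without the third Veh 24 h library the 24 h rise was 2.67-fold. Cd34 also rose in vehicle, by 0.66 ± 0.10 from 8 to 24 h (edgeR FDR 2.92e-06), so that the arms moved in the same direction and the FGF6 arm moved further. Beside the falling receptors the composition of the marker set shifted: the Cd34 to Pdgfra ratio, again in CPM and not corrected for length, was 0.0553 to 0.0629 in the Veh 24 h libraries and 0.422 to 0.526 in the FGF6 24 h libraries. An opposite-strand gene, Gm16897, shares 148 of the 7290 exonic bases of Cd34.

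Thy1 (ENSMUSG00000032011; chromosome 9, 44043384 to 44048579, plus strand), a GPI-anchored glycoprotein gene of fibroblasts and mesenchymal stromal cells, changed least of the markers at 8 and 24 h. Veh was at 74.62, 70.41 and 72.67 CPM at 4 h, 88.63, 76.70 and 78.25 CPM at 8 h and 64.14, 63.12 and 63.44 CPM at 24 h. FGF6 was at 67.52, 61.77 and 61.75 CPM, then 76.14, 75.12 and 75.52 CPM, then 56.35, 55.01 and 55.79 CPM. The FGF6 libraries were the lower at each time, with a gap at 8 h that was narrow apart from the first Veh library. The log2 fold changes were -0.19 ± 0.05, -0.10 ± 0.05 and -0.19 ± 0.05, with edgeR FDRs of 0.00108, 0.048 and 0.00094. Without the third Veh 24 h library the 24 h value was -0.15 (edgeR FDR 0.0142). The call at 8 h did not hold: it was lost under 4 of 8 other processing settings (edgeR or DESeq2 FDR 0.0842 to 0.229) and in 16 of the 18 fits that each left out a library, most of all without the first Veh 8 h library (-0.04, edgeR FDR 0.487). No difference of the Thy1 effect between times passed, the largest being 0.09 ± 0.07 from 4 to 8 h (edgeR FDR 0.364), and 24 minus 4 h was 0.00 ± 0.07. Ly6a and Thy1, both GPI-anchored, therefore diverged, with a CPM ratio of 3.56 to 4.15 in the Veh 24 h libraries and 0.515 to 0.666 in those with FGF6.

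Among the transcription factors, Zfp423 (ENSMUSG00000045333; chromosome 8, 87661810 to 87959595, minus strand), a zinc finger protein of preadipocyte commitment, fell furthest in relative terms. It was at 8.464, 8.098 and 8.245 CPM in Veh and 5.288, 5.227 and 6.582 CPM with FGF6 at 4 h. At 8 h it was at 7.860, 6.166 and 7.017 CPM in Veh and 2.083, 2.622 and 2.219 CPM with FGF6, and at 24 h at 11.00, 12.27 and 9.67 CPM in Veh and 0.6565, 0.5358 and 1.211 CPM with FGF6. The groups were separate each time, and the arms moved apart because Veh rose from 8 to 24 h (0.65 ± 0.12, edgeR FDR 8.99e-05) while FGF6 fell. The log2 fold change was -0.54 ± 0.13 at 4 h, -1.60 ± 0.15 at 8 h and -3.78 ± 0.18 at 24 h, with edgeR FDRs of 0.00084, 1.14e-09 and 7.87e-16. The FGF6 24 h libraries held 15 to 33 Zfp423 counts each, and their coefficient of variation was 44.9%, the widest spread of any detected marker and group in this comparison. Over the fits that each left out a library it ran from -4.16 to -3.56, and without the third Veh 24 h library it was -3.82 (14.1-fold).

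Ebf1 (ENSMUSG00000057098; chromosome 11, 44617317 to 45008091, plus strand), an early B cell factor active in adipocyte precursors, changed direction. At 4 h it was at 70.34, 76.03 and 73.94 CPM in Veh and 78.50, 87.30 and 92.10 CPM with FGF6. At 8 h it was at 66.10, 70.21 and 68.19 CPM in Veh and 36.23, 35.86 and 36.16 CPM with FGF6. At 24 h it was at 62.00, 62.12 and 65.80 CPM in Veh and 24.51, 23.54 and 24.77 CPM with FGF6. FGF6 libraries were thus all above Veh at 4 h and all below at 8 and 24 h. The log2 fold change was 0.23 ± 0.05 (edgeR FDR 0.000185), then -0.92 ± 0.05 (1.85e-14) and -1.38 ± 0.05 (8.31e-18), and the difference between 8 and 4 h of -1.14 ± 0.07 passed (edgeR FDR 8.36e-12). Without the third Veh 24 h library the 24 h value was -1.31.

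En1 (ENSMUSG00000058665; chromosome 1, 120602418 to 120607992, plus strand) was lower with FGF6 from the outset and moved late. Veh was at 27.11, 25.56 and 27.61 CPM at 4 h, 27.93, 27.59 and 30.16 CPM at 8 h and 31.84, 27.71 and 25.14 CPM at 24 h. FGF6 was at 18.45, 19.95 and 21.05 CPM, then 22.66, 19.97 and 20.13 CPM, then 14.99, 15.61 and 17.03 CPM. No FGF6 library reached the Veh range of its time. The log2 fold changes were -0.43 ± 0.07, -0.45 ± 0.07 and -0.83 ± 0.08, with edgeR FDRs of 1.67e-05, 7.21e-06 and 3.98e-10. The effects at 8 and 4 h differed by -0.01 ± 0.11 (edgeR FDR 0.951), and 24 minus 8 h by -0.39 ± 0.11 (0.00432). Without the third Veh 24 h library, the lowest for En1 in its group, the 24 h value was -0.86.

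**Figure D2:**
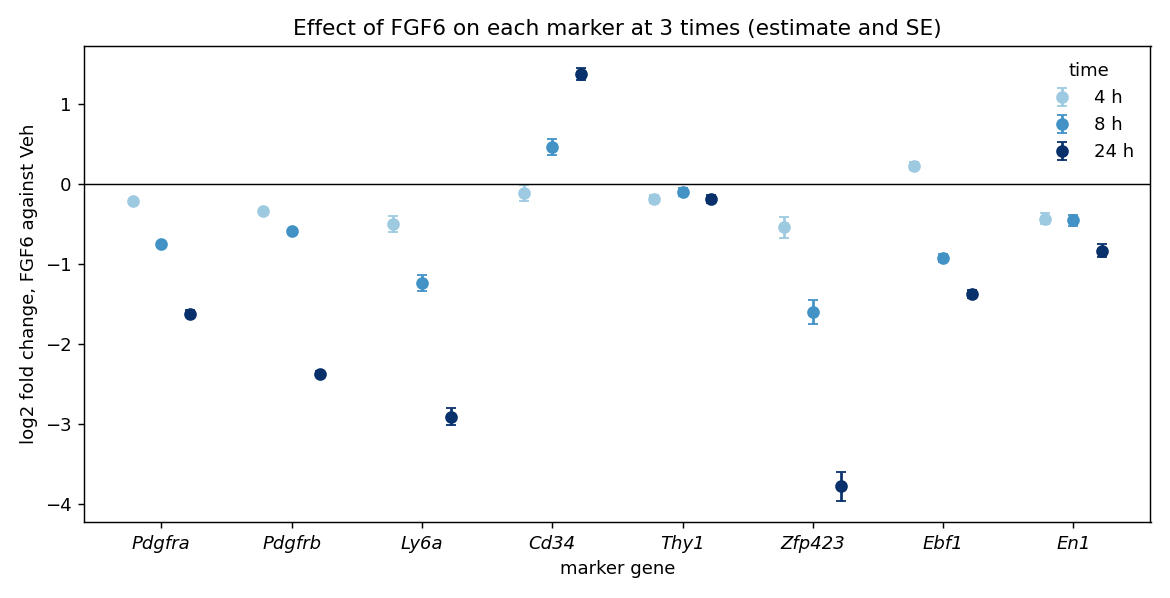
Log2 fold change of each detected marker, FGF6 against Veh, at 4 h (light blue), 8 h (mid blue) and 24 h (dark blue), with bars of 1 SE from the edgeR fit over 18 libraries. At 24 h the estimates run from -3.78 for Zfp423 to 1.38 for Cd34, Ebf1 alone is above 0 at 4 h and below 0 later, and the 3 Thy1 estimates lie within 0.10 of one another.

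To see when the markers diverged, the FGF6 effects at different times were compared as interactions. Between 4 and 8 h the effect of FGF6 differed for 6 of the 8 markers (30.6% of all genes), the exceptions being Thy1 and En1, and between 8 and 24 h for 7 (45.1%), the exception being Thy1. From 4 to 24 h it differed for 7 (53.5%). The differences reached 2-fold for 2 markers from 4 to 8 h (3.49% of all genes), Zfp423 and Ebf1, for 3 from 8 to 24 h (8.49%), Pdgfrb, Ly6a and Zfp423, and for 6 from 4 to 24 h (12.6%). In vehicle alone 2 markers changed from 4 to 8 h (43.0% of all genes), Pdgfra and Thy1, both upward (21.2%), 4 from 8 to 24 h (49.2%) and 6 from 4 to 24 h (60.8%). At an FDR under 0.25 the number from 4 to 8 h was 6 (59.4%). None of the Veh changes reached 2-fold, which 2.26%, 4.48% and 8.24% of all genes did over these intervals. Cd34, Zfp423, Pdgfra and Pdgfrb were higher at 24 h than at 4 h in Veh, by 0.50, 0.42, 0.38 and 0.14 on the log2 scale, and Thy1 and Ebf1 were lower, with log2 changes of -0.19 and -0.22. All of these tests share libraries, so they are not independent of one another.

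Levels of different genes were compared as RPKM, which divides CPM by the exonic length in kilobases. In Veh at 4 h the order was Ly6a at 188 ± 21.5 RPKM (SD, n = 3), Pdgfrb at 115 ± 0.557, Thy1 at 24.2 ± 0.701, Pdgfra at 21.5 ± 0.515, En1 at 10.2 ± 0.406, Ebf1 at 7.53 ± 0.295, Cd34 at 1.60 ± 0.192 and Zfp423 at 1.47 ± 0.0327. Cd34 and Zfp423 did not differ beyond their spread, and the genes higher in that order did. Ly6a and Pdgfrb kept the first and second rank in all 6 groups, also in FGF6 at 24 h, where they had 26.8 ± 3.91 and 24.4 ± 0.427 RPKM and no longer differed beyond their spread. Cd34 rose from 2.27 ± 0.126 RPKM in Veh to 5.89 ± 0.462 with FGF6 at 24 h, which took it past Ebf1 at 2.49 ± 0.0663 and close to En1 at 6.05 ± 0.398.

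The 6 groups were ordered by mean CPM for each marker. For Pdgfra and Pdgfrb no neighbouring groups in the order overlapped, and all 3 Veh groups lay above all 3 FGF6 groups. Ly6a and En1 kept the 3 Veh groups above the 3 FGF6 groups too, but their Veh groups overlapped one another. For Zfp423 the Veh 8 h and FGF6 4 h groups overlapped, since 1 library of each fell between 6.166 and 6.582 CPM. Cd34 did not separate Veh at 4 h, FGF6 at 4 h and Veh at 8 h, and FGF6 at 24 h stood above every other group. The order for Thy1 followed time more than treatment, with the 8 h groups highest in each arm.

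**Figure D3:**
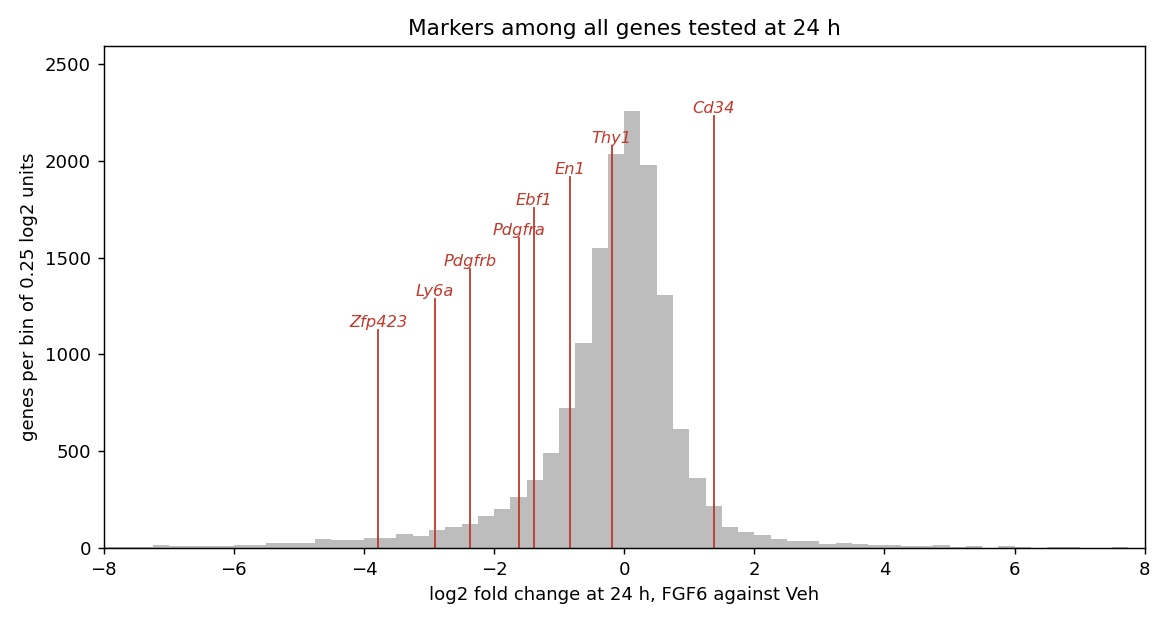
Number of genes per bin of 0.25 log2 units by log2 fold change at 24 h, FGF6 against Veh, for the 15071 genes tested (axis shown from -8 to 8; the values run from -9.29 to 8.47), with a red line at the estimate of each detected marker. Zfp423, Ly6a, Pdgfrb and Pdgfra stand in the left tail, Cd34 in the right, and Thy1 near the centre; the heights of the red lines only stagger the names.

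Among all genes tested at 24 h, 2.55% were lower in log2 fold change than Zfp423, 4.09% than Ly6a, 5.55% than Pdgfrb, 9.41% than Pdgfra and 11.2% than Ebf1. En1 had 18.8% of genes below it and Thy1 40.7%. Cd34 stood above 95.5% of genes. At 4 h the same markers were spread through the distribution, from Zfp423 with 17.7% below it to Ebf1 with 73.7%. Zfp423, Ly6a, Pdgfrb, Pdgfra and Ebf1 thus reached their low positions over the day. The positions of En1 (22.2% at 4 h) and Thy1 (38.2%) changed little.

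The promoters of markers that moved in different directions are shown for Zfp423, Pdgfra and Cd34, as the 250 bases before the RefSeq start site on GRCm38.p6, 5′ to 3′ on the strand of the gene. Zfp423 has a second start site in RefSeq, and the first is printed. The windows are chr8:87959596-87959845 on the minus strand, chr5:75152001-75152250 on the plus strand and chr1:194938571-194938820 on the plus strand. Capitals mark GC boxes.
Zfp423: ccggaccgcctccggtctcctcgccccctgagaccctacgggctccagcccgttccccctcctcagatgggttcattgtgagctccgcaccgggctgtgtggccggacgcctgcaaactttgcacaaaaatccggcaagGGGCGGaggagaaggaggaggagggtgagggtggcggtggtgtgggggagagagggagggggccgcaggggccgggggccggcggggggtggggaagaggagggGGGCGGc
Pdgfra: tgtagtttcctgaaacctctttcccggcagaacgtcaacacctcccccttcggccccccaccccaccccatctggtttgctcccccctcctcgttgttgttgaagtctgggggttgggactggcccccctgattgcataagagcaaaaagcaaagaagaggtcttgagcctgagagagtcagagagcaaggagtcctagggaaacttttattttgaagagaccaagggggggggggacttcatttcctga
Cd34: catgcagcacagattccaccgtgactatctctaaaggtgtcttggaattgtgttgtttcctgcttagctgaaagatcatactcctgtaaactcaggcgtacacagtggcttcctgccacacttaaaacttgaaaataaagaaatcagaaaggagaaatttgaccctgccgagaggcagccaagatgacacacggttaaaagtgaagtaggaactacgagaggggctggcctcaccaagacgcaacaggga
The windows were searched on both strands for an AP-1 site (TGANTCA), an ETS site (CCGGAAG), the palindromic EBF site, the GC box (GGGCGG), the CCAAT box (CCAAT), the TATA box (TATAAA) and an E-box (CANNTG). Zfp423 held 2 GC boxes, which 32.7% of all 32851 windows have at least once, and its window was 71.6% G or C, against a median of 52.4%. The window of its second start site, at chr8:87804440-87804689 and not printed, held 1 GC box and 3 E-boxes and was 64.8% G or C. Pdgfra and the printed Zfp423 window each held 1 E-box (66.2% of windows), which is not capitalised, and Cd34 held none of the searched motifs. The En1 window, not printed, held 1 AP-1 match (6.75% of windows) at -163 to -157 and 1 ETS match (6.91%) at -152 to -146 from its start site. It also held 2 CCAAT boxes (33.8% of windows have at least 1) and 2 E-boxes. The window of Dpp4, which was not detected, held 1 EBF match (0.779%), 1 TATA box (12.4%) and 1 E-box. Of the Ebf1 and Tcf21 windows, not printed, only that of the second Ebf1 start site held a match, 1 E-box. Matches were not read for Pdgfrb, Ly6a or Thy1. All of these are matches of letters and no binding was measured.

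The relatives and partners of the markers were then read from a list of 27 genes, 15 of which passed the filter. At 24 h 4 were higher and 10 lower, with a median log2 fold change of -1.17, beside 35.9% of all genes higher, 37.9% lower and a median of -0.02. Of the PDGF ligands tested, Pdgfa and Pdgfc went against the receptors and Pdgfb did not at 24 h. Pdgfa rose by 0.17 ± 0.04, 0.35 ± 0.04 and 0.77 ± 0.04 on the log2 scale at 4, 8 and 24 h, and Pdgfc by 0.38 ± 0.05, 0.46 ± 0.05 and 0.81 ± 0.04. Pdgfa was at 30.96 ± 1.04 CPM in Veh and 52.62 ± 1.95 with FGF6 at 24 h, and Pdgfc at 43.08 ± 1.29 and 75.53 ± 0.72. Transcripts of Pdgfa and Pdgfc were thus higher in the same libraries in which those of both receptors were lower. Pdgfb was scarce, rising by 1.11 ± 0.29 at 4 h (edgeR FDR 0.00163) and falling by 2.34 ± 0.49 at 24 h (0.000123) on 0 to 9 counts per FGF6 library. Pdgfrl, a PDGF receptor-like gene, rose by 0.35 ± 0.09 at 4 h and was -2.32 ± 0.12 at 24 h. Pdgfd had 0 counts.

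The relatives of Cd34 went in both directions. Podxl, which encodes podocalyxin, was higher with 2.07 ± 0.41 at 24 h (edgeR FDR 7.2e-05), from 2 to 8 counts per Veh library to 15 to 26 with FGF6, whereas Podxl2 was lower with -2.70 ± 0.22 (4.57e-11). Dpp4 being undetected, its peptidase relatives were Dpp7, lower by 24 h with -1.45 ± 0.03, Dpp8, higher with 0.20 ± 0.04, and Dpp9 with 0.05 ± 0.03, which did not pass (edgeR FDR 0.191). Fap, the fibroblast activation protein gene most like Dpp4, reached 10 counts at most, and Dpp6 and Dpp10 at most 1.

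**Figure D4:**
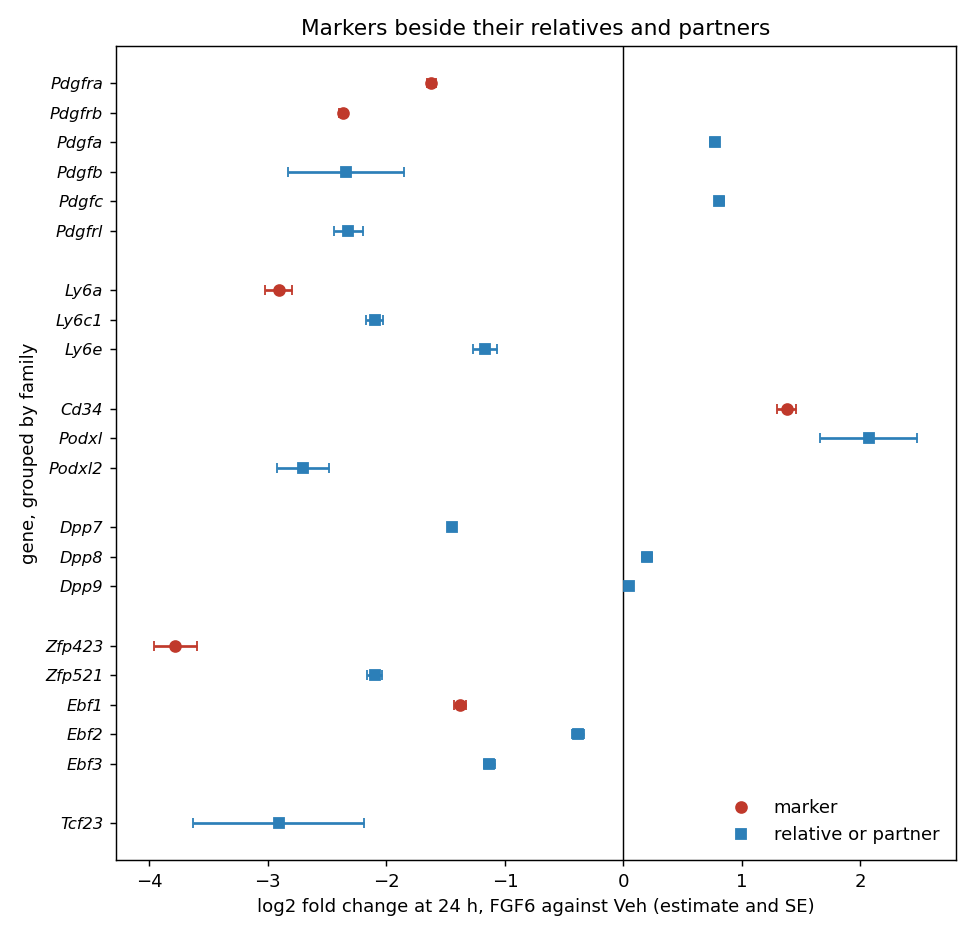
Log2 fold change at 24 h, FGF6 against Veh, of the markers (red circles) and of their tested relatives and partners (blue squares), grouped by family, with bars of 1 SE. Pdgfa and Pdgfc lie right of 0 while Pdgfb and both receptors lie left of it, and Podxl and Podxl2 lie on opposite sides.

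Transcription factor relatives fell with the markers. Zfp521, the paralogue of Zfp423 that restrains adipogenesis, was lower already at 4 h, with log2 fold changes of -1.19 ± 0.06 at 4 h, -1.46 ± 0.05 at 8 h and -2.10 ± 0.06 at 24 h, from 53.00 ± 2.67 CPM in Veh to 12.33 ± 0.322. Its estimate was below that of Zfp423 at 4 h (-0.54) and above it at 24 h (-3.78), a difference between genes that was not tested. Ebf2, the family member linked to brown fat identity, was -0.09 ± 0.05 at 4 h (edgeR FDR 0.107), -0.50 ± 0.05 at 8 h and -0.38 ± 0.05 at 24 h, and Ebf3 was -0.27 ± 0.04, -0.73 ± 0.05 and -1.13 ± 0.05. Neither was above Veh at 4 h, when Ebf1 was. Ebf4, En2 and the Tcf21 relatives Msc, Tcf15 and Tcf24 stayed below the filter, and Tcf23 fell on at most 22 counts per library.

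Other genes of progenitor surfaces, 15 of 18 tested, had 7 higher and 7 lower at 24 h and a median log2 fold change of -0.25, where the shares of all genes, 35.9% higher and 37.9% lower, were also about even. Alcam, an adhesion protein, rose from 6.780 ± 0.852 CPM to 159.2 ± 3.67 (log2 fold change 4.56), Pi16, a marker of the same interstitial progenitors as Dpp4, from 0.4047 ± 0.151 to 6.264 ± 0.938 (3.96), and Nt5e, which encodes the ectonucleotidase CD73, from 0.7161 ± 0.113 to 9.834 ± 1.25 (3.76). Pi16 had 7 to 14 counts per Veh library at 24 h and was below 1 CPM in every group but FGF6 at 24 h. Dpp4 itself had 0 counts in both arms at 24 h. Vcam1 fell from 455.9 ± 23.0 CPM to 32.68 ± 1.64 (-3.80), F3, the tissue factor gene, from 344.0 ± 4.55 to 30.85 ± 1.85 (-3.48) and Cd24a to 3.436 CPM (-1.92). Cd34 was thus not the only surface gene of this kind to rise. Dlk1 and Cd55 had 0 counts and Pdpn at most 1.

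All 14 stromal secreted and matrix genes were tested, and at 24 h 3 were higher and 11 lower (35.9% and 37.9% of all genes), with a median log2 fold change of -1.59. Dcn rose from 21.35 ± 0.462 CPM to 132.4 ± 26.0 (2.63), and Lum (0.59) and Fn1 (0.52) less so. Apod fell from 45.66 ± 5.34 CPM to 0.3638 ± 0.13 (-6.96), Ogn from 99.41 ± 9.19 to 1.937 ± 0.197 (-5.68) and Postn from 625.5 ± 61.5 to 22.40 ± 2.68 (-4.80). Of 16 mesenchymal transcription factors 5 were higher and 11 lower, against the same shares of all genes, with a median of -0.54. Foxc2 (2.06), Twist1 (0.64) and Zeb1 (0.53) rose, and Osr2 (-2.57), Prrx2 (-2.53) and Foxc1 (-2.02) fell. At 24 h Pdgfra, Pdgfrb and Ly6a were lower, as were 11 of the 14 listed matrix genes, all but decorin, lumican and fibronectin. Of the other markers, Cd34 was higher (1.38) and Thy1 was close to Veh (-0.19). The lists were chosen with earlier results of these data known, so these counts describe the listed genes only.

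**Figure D5:**
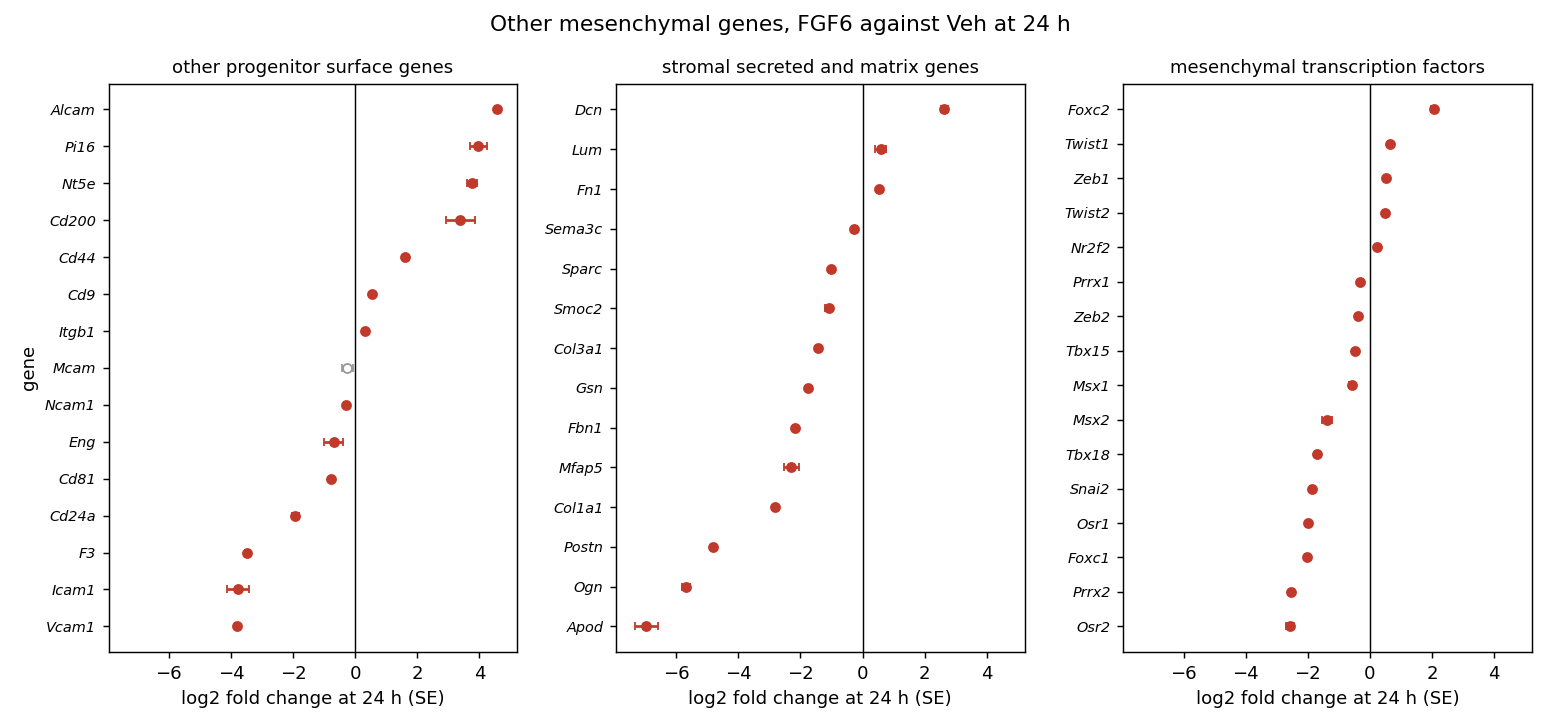
Log2 fold change at 24 h with bars of 1 SE for 3 further lists, red where the edgeR FDR was under 0.05 and open grey where it was not. Surface genes spread to both sides of 0, while 11 of 14 matrix genes and 11 of 16 transcription factors lie left of it.

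Of 10 genes of brown fat precursors and their origin 4 passed the filter, with 2 higher and 2 lower at 24 h (35.9% and 37.9% of all genes). Pax3 was expressed in both arms, at 40.87 ± 1.75 CPM in Veh and 33.89 ± 1.11 with FGF6 at 24 h (log2 fold change -0.27), Prdm16 rose from 6.022 ± 0.284 to 9.077 ± 0.758 CPM (0.59) and Meox1 fell from 1.453 ± 0.138 to 0.2787 ± 0.0584 CPM (-2.36). Epsti1 had at most 31 counts per library at 24 h. Myf5 and Meox2 had 0 counts. The change of En1, the dermomyotome marker (-0.83), lay between those of Meox1 and Pax3.

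Markers of other cell types moved in the same comparisons, and their part in the results was not tested. The summed level of 6 mural genes was 731.3 to 732.7 CPM in Veh at 24 h and 107.2 to 113.1 CPM with FGF6, carried by Acta2 and Notch3, while Kcnj8 and Abcc9, genes of pericytes, were at 0 in Veh at that time. That sum fell together with Pdgfrb, which pericytes share, but of the 4 mural genes tested at 24 h only Acta2 and Notch3 were lower. Rgs5 was higher, at 0.8102 ± 0.0287 CPM in Veh and 1.453 ± 0.29 with FGF6 (edgeR FDR 0.00751), and Cspg4 was at 30.27 ± 1.87 and 27.78 ± 1.28 CPM, which did not pass (0.0872). The sum of 6 bone and cartilage genes rose from 34.82 to 37.48 CPM to 199.3 to 215.9 CPM, which was Sox9, with Ibsp at 0 and Acan at most 4 counts. Mature adipocyte genes summed to 155.7 to 178.2 CPM in Veh and 63.43 to 70.08 CPM with FGF6, nearly all of it Fabp4, with Lep at 0. Endothelial genes summed to 0.9952 to 1.331 CPM in Veh and 3.706 to 5.654 CPM with FGF6. The rise came mostly from Cdh5, at 0.05819 ± 0.0505 CPM in Veh and 3.591 ± 0.639 with FGF6, while Cldn5 was at 0 in both arms. Any relation to the rise of Cd34 was not tested. Skeletal muscle genes went from 6.866 to 10.39 CPM to 1.286 to 1.761 CPM, macrophage genes from 7.690 to 8.687 to 3.392 to 4.037, Schwann genes from 4.102 to 4.247 to 2.444 to 2.642 and mesothelial genes from 9.349 to 11.81 to 13.68 to 15.67.

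Over the 18 libraries the pattern of each marker was compared with every other gene of at least 1 CPM on average, by Pearson correlation of log2(CPM + 0.5). As a description, with libraries of 6 groups as the points, Cdh11 was closest to Pdgfra (r = 0.997), Lamb2 to Pdgfrb (0.997), Ly6c1 to Ly6a (0.994), Cemip to Zfp423 (0.984), Glis3 to Ebf1 (0.975), Eno1b to Cd34 (0.974), Klf15 to En1 (0.963) and Ccdc134 to Thy1 (0.930). Slc43a1 and Col12a1 followed for Pdgfra, Ssc5d and Itgad for Pdgfrb, and Irf4 and Tns1 for Ebf1. For Cd34 the next were Rpl7 and Rps4x, for Zfp423 Gstt1 and Selenop, for En1 Rspo2 and Iscu, and for Thy1 Kmt5c and Pidd1. Eno1b, Rpl7 and Rps4x have near-identical copies in the genome, so their counts are uncertain. Ly6c1 may share reads with Ly6a, as described above, and how far this raises their correlation was not tested. Among the markers, Pdgfrb and Ly6a were the most alike (0.98), Pdgfra and Ly6a followed (0.96), and Cd34 ran against each of the other 7, from -0.88 with Pdgfrb to -0.64 with En1. Thy1 ran from -0.74 with Cd34 to 0.65 with Pdgfra. All points share the same treatment and time structure, so these values describe likeness of pattern and nothing further.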

How the data were processed

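RNA sequencing measured transcript levels in 18 libraries. The authors aligned reads to GRCm38.p4 with STAR, assigned them to GENCODE genes with featureCounts of the Subread package, and deposited raw counts per gene with no normalization. Versions, strand setting and the treatment of reads that map to several places are not given in the sources used here. Symbols and coordinates came from GENCODE M21 (98.3% of identifiers matched).

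From these counts, edgeR 4.0.16 in R 4.3.3 (filterByExpr, TMM factors, quasi-likelihood fit to 6 group means over 18 libraries, no covariates) tested FGF6 against Veh at each time, the differences of these effects between times, and Veh between times. Benjamini-Hochberg adjustment was over 15071 genes, with calls at 0.05. SE is that implied by the F statistic. Exact permutation of 3 against 3 libraries cannot go below 0.1, so none was used. Floors cover counting error only. The procedures were tested on simulated data.

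All 10 markers and all relatives that passed the filter are named, and from each other list up to 3 largest rises and falls at 24 h (FDR under 0.05, no overlap, mean of at least 1 CPM). Markers of other cell types and genes at or near 0 counts are named as checks. The genes after the closest in pattern to Ly6a are not reported here. Markers and lists were chosen with earlier results of these data known. Alternatives were voom with limma 3.58.1, DESeq2 1.42.0, other scalings, filters, thresholds and sample subsets, a replicate block, and leaving out each library.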

Additional observations from a re-analysis of the deposited data

Results flagged for a closer look

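The FGF6 effect itself changed with time for 7 of the 8 tested markers, by the test of the difference between times across all genes (edgeR quasi-likelihood, FDR under 0.05). Such changes were common: 30.6% of all genes passed from 4 to 8 h, 45.1% from 8 to 24 h and 53.5% from 4 to 24 h. From 4 to 8 h the log2 effect moved by -0.54 for Pdgfra, -0.24 for Pdgfrb, -0.74 for Ly6a, 0.57 for Cd34, -1.06 for Zfp423 and -1.14 for Ebf1. From 8 to 24 h it moved by -0.87 for Pdgfra, -1.79 for Pdgfrb, -1.66 for Ly6a, 0.92 for Cd34, -2.18 for Zfp423, -0.46 for Ebf1 and -0.39 for En1. From 4 to 24 h it moved by -1.41 for Pdgfra, -2.03 for Pdgfrb, -2.41 for Ly6a, 1.49 for Cd34, -3.24 for Zfp423, -1.61 for Ebf1 and -0.40 for En1. The adjusted p-values of these 20 differences in edgeR ran from 3.21e-22 to 0.00432. Ebf1 moved more in the first interval, and Pdgfra, Pdgfrb, Ly6a, Cd34, Zfp423 and En1 in the second. Without the third Veh 24 h library the changes from 8 to 24 h were -0.87 for Pdgfra, -1.79 for Pdgfrb, -1.68 for Ly6a, 0.92 for Cd34, -2.26 for Zfp423, -0.44 for Ebf1 and -0.46 for En1.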

How the results depend on the processing

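Across the 8 other processing settings and the 18 fits without a library, no marker changed direction at any time, and the calls of FGF6 against Veh held for every marker and time apart from Thy1 at 8 h, which was lost in 20 of these fits. With library sizes alone the median of all genes moved by -0.10 at 4 h, and the markers moved with it. Requiring 2-fold changes left 0 markers at 4 h, 2 at 8 h, 2 for the difference between 4 and 8 h, 3 for that between 8 and 24 h, and 0 for each of the Veh comparisons. At an FDR under 0.25, 6 markers changed in Veh from 4 to 8 h instead of 2. With all 18 libraries 62.8%, 70.8% and 73.8% of all genes were called at 4, 8 and 24 h, and 71% at 24 h without the third Veh 24 h library. Without 1 library in turn, the number of markers called was 7 throughout at 4 h, 7 to 8 at 8 h and 8 throughout at 24 h. Over the same fits the differences between times numbered 6 for 8 against 4 h, 7 to 8 for 24 against 8 h and 7 for 24 against 4 h, and the Veh changes 1 to 3, 4 to 5 and 5 to 6. The lowest of these, 1, came without the first Veh 8 h library. Same-numbered Veh and FGF6 libraries did not deviate together (correlations of -0.05 to 0.05 over 9 pairs), and with the replicate number as a block 7, 8 and 8 markers were called at 4, 8 and 24 h, as without it. Depth limits Zfp423 at 24 h, Podxl, Pdgfb and Tcf23, which rest on few counts, and Dpp4 and Tcf21, which could not be tested.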
